A study of Mus musculus with 2 samples.

Results

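The transcripts of 9 genes that signal to or from nerves were followed across the cells of the regenerating mouse digit tip. They were the neuropeptides galanin (Gal) and cholecystokinin (Cck), the calcitonin receptor-like receptor (Calcrl) and its partner Ramp1, the neurotrophin Bdnf, the neurotrophin receptors Ntrk2, Ntrk3 and Ngfr, and the trophic factor Gdnf. They are 9 of the 28001 features in the count matrices, taken by gene symbol, and all 9 symbols were found once. The set was put together because Gal, Cck, Ramp1, Bdnf and Ntrk2 mark states of the mesenchyme in these same cells. Their levels over those states are therefore a description and carry no test.

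Adult mice aged 10 to 12 weeks gave 2 libraries, 1 from an Lmx1bCreERT2;R26-LSL-TdT line and 1 from a PdgfraCreERT;R26-LSL-TdT line, called the Lmx1b and the Pdgfra library here. In both, a tamoxifen-dependent Cre recombinase, made where Lmx1b or Pdgfra is expressed, switches on the red fluorescent protein tdTomato from the Rosa26 locus. All mice received tamoxifen at 3 mg per day for 4 days, their digits were amputated 10 days after it, and the tissue distal to the cut was collected at 14 days. The cells were freed with Liberase and captured for droplet 3′ RNA sequencing, in which each captured transcript is counted once through its unique molecular identifier (UMI). No sort on tdTomato was described, no uncut digit was included, and the number of animals pooled per library is not given in the sources used here. With 1 library per line there is no replicate, so no p-value is given and every interval covers counting error only.

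Galanin and cholecystokinin are short secreted peptides of neurons and gut endocrine cells that act on G protein-coupled receptors. Calcrl reaches the cell surface only with a RAMP protein, which also sets its ligand: with Ramp1 it binds calcitonin gene-related peptide (CGRP), the main vasodilator of sensory nerve endings, and with Ramp2 or Ramp3 it binds adrenomedullin, which vessels need. BDNF acts through the receptor tyrosine kinase TrkB, the product of Ntrk2, while Ntrk3 encodes TrkC, the receptor of neurotrophin-3, and Ngfr encodes p75, which binds all neurotrophins and is a marker of non-myelinating and repair Schwann cells. GDNF supports sensory, motor and autonomic neurons through GFRα1 and RET. Digit tip regeneration in mice is known to need the nail organ and to slow after denervation.

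The promoter windows of the 5 members that separated the mesenchymal states or the vessel wall most widely are printed here because the levels below follow these genes from state to state. Each runs from 250 bases before to 50 bases after the annotated RefSeq start, on the strand of the gene, in build GRCm38.p6. Capitals mark every match on either strand to one of 6 motifs that were searched: the homeodomain core TAATTA, the RUNX site AACCACA, the cyclic AMP response half-site TGACG, the E-box CACGTG, the TATA box TATAAA and the GC box GGGCGG.
Gal, chr19:3414495-3414794, minus strand: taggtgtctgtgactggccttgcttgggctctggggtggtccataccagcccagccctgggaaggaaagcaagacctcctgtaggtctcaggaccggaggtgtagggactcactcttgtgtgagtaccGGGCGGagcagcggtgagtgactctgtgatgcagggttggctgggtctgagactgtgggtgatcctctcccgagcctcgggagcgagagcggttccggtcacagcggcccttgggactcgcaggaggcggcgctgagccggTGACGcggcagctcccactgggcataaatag
Cck, chr9:121495645-121495944, minus strand: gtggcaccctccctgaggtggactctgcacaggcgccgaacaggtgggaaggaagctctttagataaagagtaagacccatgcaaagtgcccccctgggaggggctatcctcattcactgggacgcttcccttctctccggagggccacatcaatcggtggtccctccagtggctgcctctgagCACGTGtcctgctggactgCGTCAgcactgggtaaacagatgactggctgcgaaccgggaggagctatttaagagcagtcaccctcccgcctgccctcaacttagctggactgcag
Ramp1, chr1:91179572-91179871, plus strand: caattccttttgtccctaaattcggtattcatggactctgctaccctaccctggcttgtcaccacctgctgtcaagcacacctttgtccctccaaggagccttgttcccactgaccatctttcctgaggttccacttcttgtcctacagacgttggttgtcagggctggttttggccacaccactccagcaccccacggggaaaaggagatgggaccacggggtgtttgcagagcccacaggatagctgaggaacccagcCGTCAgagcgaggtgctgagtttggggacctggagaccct
Calcrl, chr2:84425217-84425516, minus strand: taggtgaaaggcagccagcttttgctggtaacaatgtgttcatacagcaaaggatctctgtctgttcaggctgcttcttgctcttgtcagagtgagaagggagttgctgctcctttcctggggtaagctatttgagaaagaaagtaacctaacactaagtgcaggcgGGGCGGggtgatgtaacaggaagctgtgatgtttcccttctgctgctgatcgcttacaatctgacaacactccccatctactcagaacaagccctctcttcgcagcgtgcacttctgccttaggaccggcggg
Ntrk2, chr13:58806319-58806618, plus strand: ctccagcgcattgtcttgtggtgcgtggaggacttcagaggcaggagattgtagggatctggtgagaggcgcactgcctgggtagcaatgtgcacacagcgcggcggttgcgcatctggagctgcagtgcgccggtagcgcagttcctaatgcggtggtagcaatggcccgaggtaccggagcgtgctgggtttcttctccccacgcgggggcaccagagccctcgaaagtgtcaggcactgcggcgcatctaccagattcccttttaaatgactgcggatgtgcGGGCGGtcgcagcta
The windows of Gal, Calcrl and Ntrk2 each held 1 GC box, a motif present in 35.7% of 32851 mouse promoter windows of this length. The Gal box lay at −122 from the start, the Calcrl box at −83 and the Ntrk2 box at 35. The Gal, Cck and Ramp1 windows each held 1 half-site, found in 20.8% of all windows, at 19, −47 and 10. Cck alone of these 5 held an E-box, at −66, against 7.15% of all windows. Neither the homeodomain core (5.29% of all windows) nor the RUNX site (5.27%) occurred in any of the 5, and the TATA box (13.6%) was absent from them too. A match describes these letters only. RefSeq gave 7 windows for Bdnf, 2 for Gdnf and 1 for Ngfr, which are not printed, and Ntrk3 is named only.

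The genes lie apart in the genome. On GRCm38, the build of the counts, Gal spans chr19:3409915-3414544 on the minus strand, Cck chr9:121489824-121495694 on the minus strand and Ramp1 chr1:91179822-91225196 on the plus strand. Calcrl spans chr2:84330626-84425411 on the minus strand and Bdnf chr2:109674700-109727007 on the plus strand of the same chromosome. Ntrk2 spans chr13:58806569-59133970 on the plus strand, Ntrk3 chr7:78175959-78738012 on the minus strand, Ngfr chr11:95568818-95587735 on the minus strand and Gdnf chr15:7810846-7837575 on the plus strand. All 9 are annotated as protein coding. The exons of Bdnf overlap those of the antisense gene Gm45346, which is not a row of the matrices, and whether reads were counted by strand is not given in the sources used here.

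Levels are counts per 1000000 (CPM): UMIs of the gene for every 1000000 UMIs of all genes, both summed over the cells of a group, and a share is the percentage of cells with at least 1 UMI. With 3′ counting the level does not depend on transcript length. To set shares side by side across depths, each cell was also thinned to 5000 UMIs.

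After quality filtering 2744 cells of the Lmx1b library and 2309 of the Pdgfra library remained, with a median of 17084 (Lmx1b) and 9774 (Pdgfra) UMIs per cell. Clusters were named from marker genes, and each name below stands for cells like that type: in the Lmx1b library 985 mesenchymal cells, 607 endothelial cells, 374 pericytes and smooth muscle cells, 132 cartilage cells, 110 macrophages and monocytes and 35 Schwann cells, and in the Pdgfra library 593, 325, 311, 114, 116 and 88 in the same order, besides smaller classes. The mesenchyme was clustered again into 8 subtypes called by marker or leading genes, among them an Sfrp2-led group referred to as nail-associated (41 Lmx1b and 133 Pdgfra cells), a group called Mest and Gldn after marker genes, with Mest but not Gldn among its leading genes (124 Lmx1b, 159 Pdgfra), one led by Aspn and Fndc1 (185 Lmx1b, 90 Pdgfra), mature osteoblasts (169 Lmx1b, 44 Pdgfra), osteoblast precursors (189 Lmx1b, 102 Pdgfra) and an Angpt2 group (125 Lmx1b, 21 Pdgfra). All genes entered the clustering, and Gal was the leading gene of 1 of the clusters joined as mature osteoblasts and Cck a leading gene of the nail-associated cluster. A cluster set against the rest is thus no test of those genes. Cartilage cells also carried the markers of the osteoblast lineage at a summed 63073 CPM (Lmx1b) and 62415 CPM (Pdgfra), close to the 75292 CPM (Lmx1b) and 64978 CPM (Pdgfra) of the mature osteoblasts, and 50 of the 114 Pdgfra cartilage cells came from a shallow cluster. The 5 neuron markers summed to 166 CPM (Lmx1b) and 150 CPM (Pdgfra) in the mesenchyme, 491 CPM (Lmx1b) and 431 CPM (Pdgfra) in endothelium and 12.8 CPM (Lmx1b) and 46.8 CPM (Pdgfra) in cartilage. Of these 5, Snap25 and Elavl4 were at 0 in all of them, no cluster was named neuron, and the part of the list in the levels below was not tested.

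The 9 genes peaked in different classes, and most of them outside the mesenchyme. Among named classes Gal was highest in cartilage, Calcrl in endothelium, Ngfr and Gdnf in Schwann cells and Ntrk3 in pericytes and smooth muscle, in both libraries. Ramp1 was highest in T and NK cells of the Lmx1b library and in cartilage of the Pdgfra library. Cck was highest in pericytes and smooth muscle of the Lmx1b library but in the mesenchyme of the Pdgfra library. Taking all mesenchymal cells together, 2 of 6 measured members were at least 2-fold higher and 1 at least 2-fold lower than in all other cells in the Lmx1b library, where 6.88% of 10586 measured genes were higher and 13.4% lower by that much. In the Pdgfra library 3 of 7 were higher and 2 lower, against 6.16% higher and 11.5% lower of 10628 genes. A gene counted as measured where both sides together had at least 5 CPM, and the folds that were counted carry a pseudocount of 1 CPM. Bdnf and Ntrk2 were the members higher in the mesenchyme of both libraries, and Calcrl was lower in both. Under a per-cell marker gate, which classed each cell by its own markers, Gal was past 2-fold in both libraries as well. That gate leaves no cell unnamed and called 158 cells of each library neuron. Bdnf stood at 12.0 CPM in Lmx1b mesenchymal cells against 2.55 CPM in all other Lmx1b cells, and at 25.4 against 8.01 CPM in the Pdgfra library. The Ntrk2 difference of the Lmx1b library, 41.5 CPM in the mesenchyme and 2.90-fold the other cells, was −0.62 on the log2 scale when each cell's CPM was averaged instead, a scale on which shallow barcodes weigh as much as deep ones. Ntrk2 stood at 85.8 CPM in the shallow erythroid class of that library and at 1981 CPM in 63 shallow barcodes that carry no class name. Both stand among the other cells of this contrast.

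**Figure D1:**
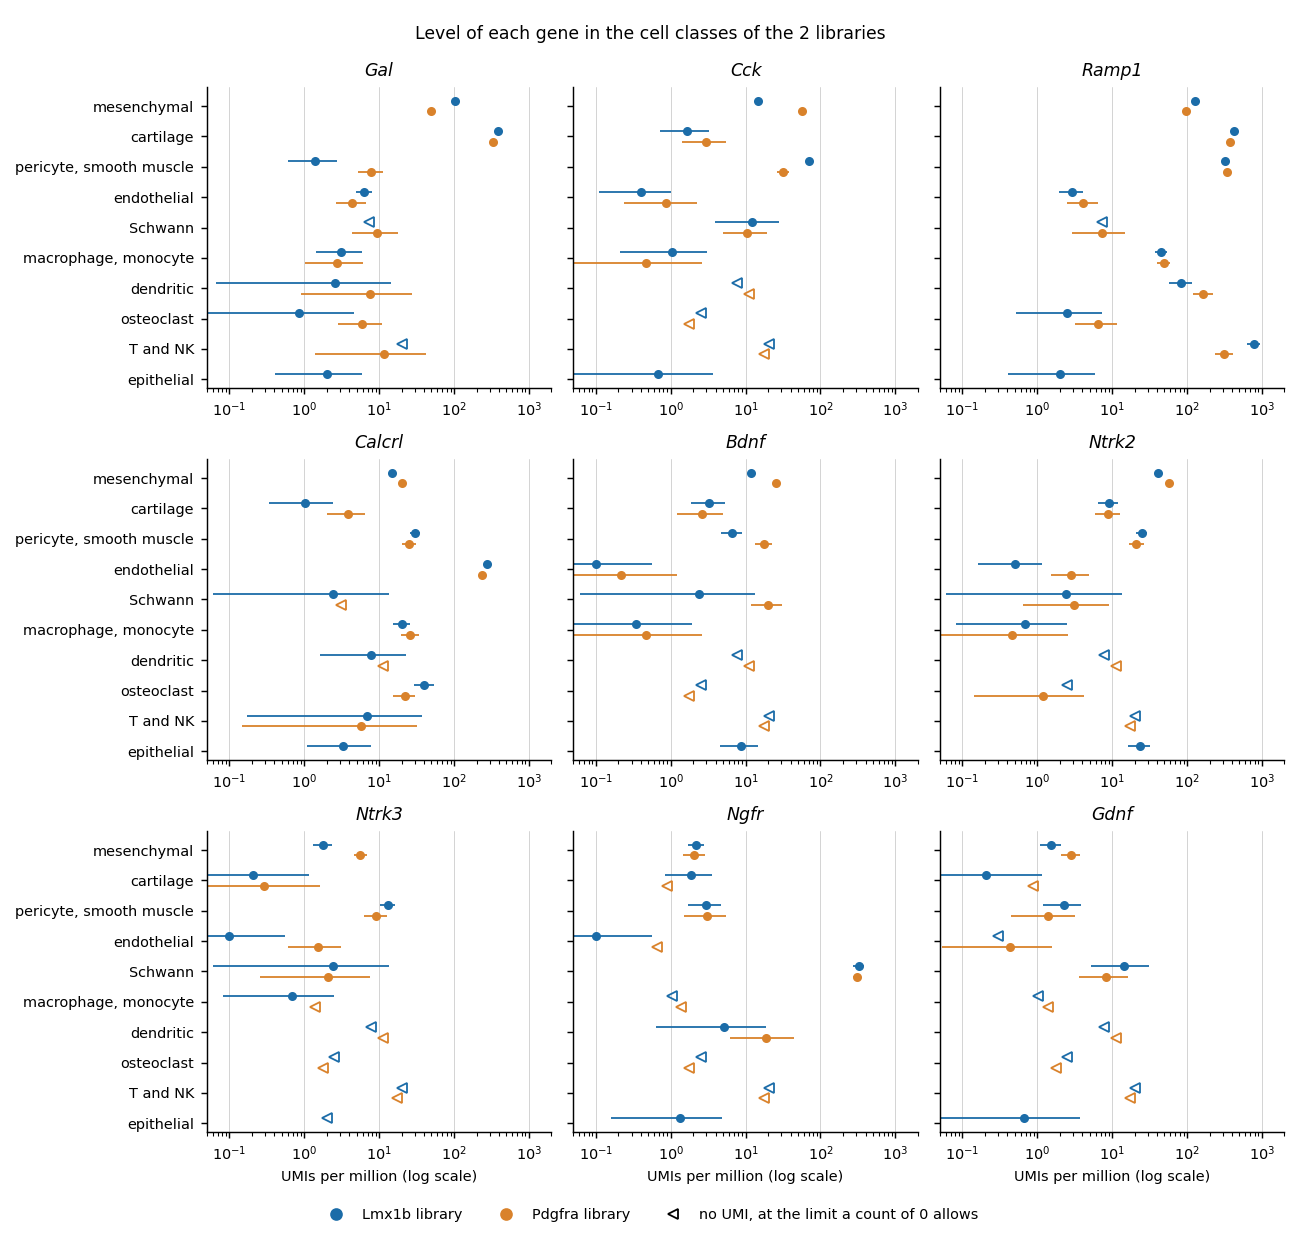
Level of the 9 genes, in CPM on a log axis, in 10 cell classes of the Lmx1b library (blue, upper point of a pair) and the Pdgfra library (orange, lower point). Bars are exact 95% Poisson intervals for counting error, and open triangles mark groups with no UMI at the limit that a count of 0 allows. Calcrl peaked in endothelium at 272 CPM (Lmx1b) and 239 CPM (Pdgfra) and Ngfr in Schwann cells at 322 CPM (Lmx1b) and 303 CPM (Pdgfra).

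Gal was a gene of skeletal cells in this tissue. In cartilage it stood at 392.3 CPM in the Lmx1b library (interval 375 to 410) and at 332 CPM in the Pdgfra library (313 to 352). It was found in 55.3% of the Lmx1b and 36.8% of the Pdgfra cartilage cells, and in 40.7% (Lmx1b) and 41.4% (Pdgfra) of them after thinning. All Gal UMIs of the Pdgfra cartilage came from its deep Col2a1 cluster of 64 cells, at 349 CPM, and none from the shallow cluster. Cartilage exceeded all other cells 6.86-fold in the Lmx1b and 11.5-fold in the Pdgfra library.

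Among mesenchymal subtypes Gal was highest in mature osteoblasts, the mineralising cells that express osteocalcin. They held 609 CPM in the Lmx1b library (587 to 632, from 2776 UMIs) and 276 CPM in the Pdgfra library (248 to 305, from 369 UMIs). The 2 clusters behind the name differed: the one led by Gal, Dmp1 and Dkk1 had 755 CPM (Lmx1b) and 317 CPM (Pdgfra), while the Bglap cluster of the Lmx1b library had 71.0 CPM. Dmp1 encodes a matrix protein of osteocytes and late osteoblasts, and Dkk1 a secreted Wnt inhibitor. Osteoblast precursors were the point on which the libraries parted, with 3.41 CPM in the Lmx1b library (24 UMIs in 15 of 189 cells) and 98.6 CPM in the Pdgfra library (512 UMIs in 25 of 102 cells). The Pdgfra precursor value rested on few cells, as the top 10% of cells held 94.7% of its UMIs. The highest cell alone had 109 of the 512 UMIs, and the level was 79.7 CPM without that cell. Outside bone and cartilage the Angpt2 group had 17.0 CPM (Lmx1b) and 8.40 CPM (Pdgfra), but 31 of the 41 Lmx1b UMIs and all 3 Pdgfra UMIs were in 1 cell, and the Lmx1b level was 4.19 CPM without it. The nail-associated cells had 4.82 CPM (Lmx1b) and 4.52 CPM (Pdgfra) and the Aspn and Fndc1 group 3.83 CPM (Lmx1b) and 2.59 CPM (Pdgfra). No UMI was found in the Lmx1b Mest and Gldn cells, where a count of 0 allows up to 0.846 CPM, and 1.09 CPM in the Pdgfra ones. Mature osteoblasts stood 151-fold above the other mesenchymal cells in the Lmx1b library (123 to 188) and 8.70-fold above them in the Pdgfra library (7.60 to 9.95).

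The Gal transcripts sat in few cells. Of mature osteoblasts 50.9% of the Lmx1b cells and 52.3% of the Pdgfra cells had a Gal UMI, yet the top 10% of cells held 82.0% (Lmx1b) and 77.2% (Pdgfra) of the UMIs. The single highest cell had 440 of 2776 UMIs in the Lmx1b library and 84 of 369 in the Pdgfra library, and without it the level was 520 CPM (Lmx1b) and 220 CPM (Pdgfra). As a class that should lack the gene, endothelium had a Gal UMI in 2.64% (Lmx1b) and 5.23% (Pdgfra) of cells at a median of 12554 (Lmx1b) and 10403 (Pdgfra) UMIs, against 25891 (Lmx1b) and 28953.5 (Pdgfra) UMIs in mature osteoblasts. In the Lmx1b endothelium 48 of 64 Gal UMIs came from 1 cell. Both skeletal shares were thus far above the share in endothelium.

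Cck belonged to the nail-associated cells and the vessel wall. In nail-associated cells it reached 257 CPM in the Lmx1b library (223 to 294) and 442 CPM in the Pdgfra library (413 to 472), or 35.3-fold (Lmx1b) and 46.1-fold (Pdgfra) the level of the other mesenchymal cells. A Cck UMI was seen in 10 of 41 Lmx1b cells (24.4%) and in 55 of 133 Pdgfra cells (41.4%), and in 23.1% (Lmx1b) and 37.0% (Pdgfra) after thinning. In the Lmx1b library 117 of the 213 UMIs came from 1 cell, without which the level was 119 CPM. In the Pdgfra library the highest cell had 106 of 881 UMIs, and 393 CPM remained without it. The Angpt2 group was next with 41.9 CPM (Lmx1b) and 42.0 CPM (Pdgfra), found in 21 of 125 Lmx1b and 8 of 21 Pdgfra cells. The Mest and Gldn group had 9.87 CPM (Lmx1b) and 11.3 CPM (Pdgfra) and the Aspn and Fndc1 group 6.75 CPM (Lmx1b) and 6.67 CPM (Pdgfra), a low level that agreed closely between libraries. Mature osteoblasts had 2.85 CPM (Lmx1b) and 19.4 CPM (Pdgfra), and of the 26 UMIs behind the Pdgfra value 24 were in 1 cell.

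Pericytes and smooth muscle, the contractile cells around vessels, had 70.4 CPM of Cck in the Lmx1b library (63.7 to 77.6) and 31.6 CPM in the Pdgfra library (26.1 to 38.0). They carried it in 33.7% (Lmx1b) and 15.8% (Pdgfra) of cells, or 24.7% (Lmx1b) and 10.0% (Pdgfra) after thinning, so the level was shared by many cells. Endothelial cells had a Cck UMI in 0.659% (Lmx1b) and 1.23% (Pdgfra) of cells. Within the class the Lmx1b clusters were alike: the Actg2 and Tagln cluster had 72.7 CPM, the Il6 and Cxcl1 cluster 68.5, the Mstn cluster 79.0 and the shallow Actg2 and Lmod1 cluster 69.5. The Pdgfra clusters were not, with 14.9 CPM in the Actg2 and Tagln cluster, 59.5 in the Il6 and Cxcl1 cluster and 75.4 in the shallow one. Schwann cells had 12.0 CPM (Lmx1b) and 10.5 CPM (Pdgfra) of Cck, with 6 of the 10 Pdgfra UMIs in 1 cell, and cartilage 1.65 CPM (Lmx1b) and 2.95 CPM (Pdgfra).

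**Figure D2:**
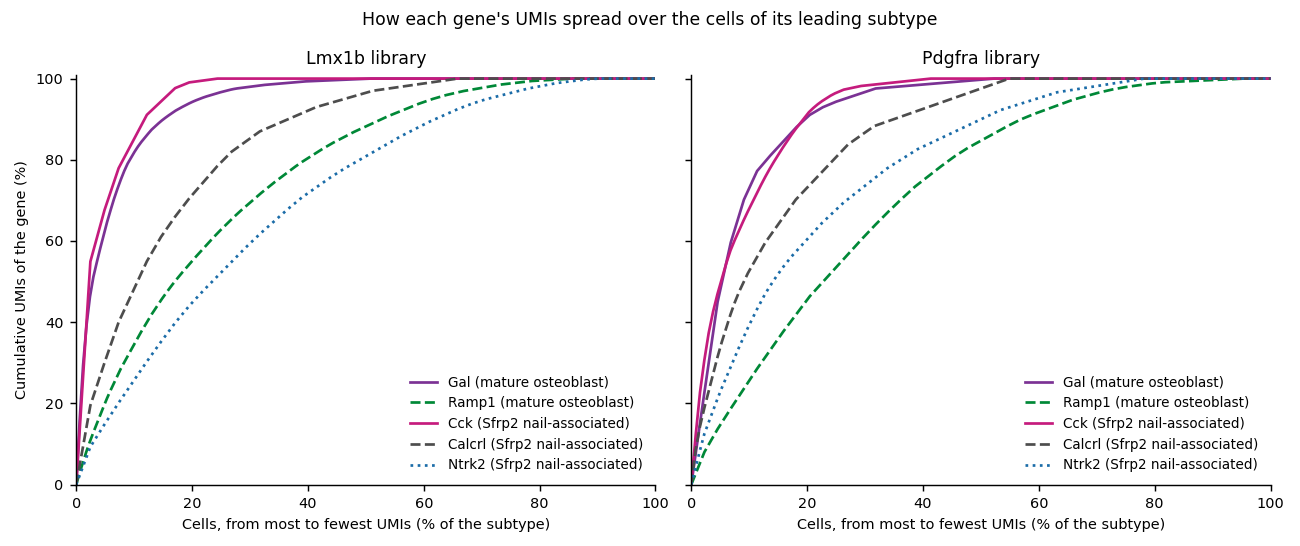
Cumulative percentage of a gene's UMIs against the percentage of cells, ranked from the cell with most to the cell with fewest UMIs, in the Lmx1b library (left) and the Pdgfra library (right). Gal and Ramp1 are drawn over mature osteoblasts and Cck, Calcrl and Ntrk2 over nail-associated cells. The Gal curve climbs to 82.0% (Lmx1b) and 77.2% (Pdgfra) within the top 10% of cells, while the Ramp1 and Ntrk2 curves climb most slowly.

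Receptors for these peptides were scarce. Of 4 galanin and cholecystokinin receptors in the files none reached 20 CPM in the same group of both libraries. Galr2, a galanin receptor, came nearest. In the Lmx1b library it peaked at 33.8 CPM in the Mmp13 group, a mesenchymal subtype with too few Pdgfra cells for a value. It had 25.4 CPM (Lmx1b) and 16.4 CPM (Pdgfra) in the Mest and Gldn group, 19.5 CPM (Lmx1b) and 24.1 CPM (Pdgfra) in the Aspn and Fndc1 group and 12.1 CPM (Lmx1b) and 8.22 CPM (Pdgfra) in mature osteoblasts. Galr1 was at 0 in every Lmx1b group and at most 0.295 CPM in a Pdgfra group. Cckar peaked at 0.347 CPM in the Lmx1b and 0.370 CPM in the Pdgfra library, and no UMI of Cckbr was seen in any group of either.

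Ramp1 marked osteoblasts, cartilage and the vessel wall. In mature osteoblasts it stood at 450 CPM in the Lmx1b library (431 to 470) and 503 CPM in the Pdgfra library (466 to 543). Unlike Gal it was spread over nearly all of them: 85.8% (Lmx1b) and 95.5% (Pdgfra) of the cells had a UMI, 81.3% (Lmx1b) and 94.4% (Pdgfra) after thinning, and the highest cell held 2.92% (Lmx1b) and 8.02% (Pdgfra) of the UMIs. Both osteoblast clusters carried it, at 488 CPM (Lmx1b) and 529 CPM (Pdgfra) in the Gal, Dmp1 and Dkk1 cluster and at 313 CPM (Lmx1b) and 330 CPM (Pdgfra) in the Bglap cluster. Osteoblast precursors followed at 186 CPM (Lmx1b) and 163 CPM (Pdgfra), in 72.5% (Lmx1b) and 70.6% (Pdgfra) of cells. The remaining subtypes formed a low tail. The Mmp13 group had 34.2 CPM (Lmx1b), cycling cells 15.4 CPM (Lmx1b) and 30.9 CPM (Pdgfra) and Mest and Gldn cells 12.7 CPM (Lmx1b) and 25.8 CPM (Pdgfra). The Angpt2 group had 22.8 CPM (Lmx1b) and 19.6 CPM (Pdgfra), or 11.3 CPM (Lmx1b) and 8.90 CPM (Pdgfra) without its highest cell. The Aspn and Fndc1 group had 14.6 CPM (Lmx1b) and 11.9 CPM (Pdgfra) and the nail-associated cells 4.82 CPM (Lmx1b) and 11.5 CPM (Pdgfra). Mature osteoblasts exceeded the other mesenchymal cells 6.62-fold in the Lmx1b library (6.20 to 7.07) and 7.82-fold in the Pdgfra library (7.09 to 8.61).

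Outside the mesenchyme, Ramp1 reached 426 CPM (Lmx1b) and 371 CPM (Pdgfra) in cartilage and 325 CPM (Lmx1b) and 344 CPM (Pdgfra) in pericytes and smooth muscle. The vessel wall value was nearly the same in both libraries, 0.946 for Lmx1b over Pdgfra, and 71.9% (Lmx1b) and 76.2% (Pdgfra) of these cells had a UMI. T and NK cells had 776 CPM, the most of any class, in the Lmx1b library (640 to 932, in 17 of 23 cells). Those of the Pdgfra library had 312 CPM (235 to 407, in 18 of 31 cells), an interval that takes in the cartilage and vessel wall values. Dendritic cells had 82.9 CPM (Lmx1b) and 165 CPM (Pdgfra) and macrophages 45.4 CPM (Lmx1b) and 48.6 CPM (Pdgfra). Endothelium stood at the other end with 2.89 CPM (Lmx1b) and 4.14 CPM (Pdgfra), in 4.45% (Lmx1b) and 5.23% (Pdgfra) of cells at its own depth and in 1.59% (Lmx1b) and 2.82% (Pdgfra) after thinning. In Schwann cells no Ramp1 UMI was seen in the Lmx1b library, which allows up to 7.22 CPM, and 7.32 CPM in the Pdgfra library.

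Calcrl followed a different map. Endothelium held 272 CPM in the Lmx1b library (262 to 283) and 239 CPM in the Pdgfra library (226 to 254), 17.2-fold (Lmx1b) and 13.3-fold (Pdgfra) the level of all other cells. It was found in 87.3% (Lmx1b) and 73.8% (Pdgfra) of endothelial cells, and in 67.2% (Lmx1b) and 64.1% (Pdgfra) after thinning. The Selp and Vwf cluster, both genes of venous endothelium, had most at 383 CPM (Lmx1b) and 322 CPM (Pdgfra). The capillary Gpihbp1 cluster had 255 CPM (Lmx1b) and 242 CPM (Pdgfra), and the cluster led by Ccl21a, a lymphatic gene, with Cldn5 and the arterial genes Gja4 and Sema3g, had least at 139 CPM (Lmx1b) and 159 CPM (Pdgfra). Among the other classes osteoclasts had 40.3 CPM (Lmx1b) and 21.8 CPM (Pdgfra), pericytes and smooth muscle 30.18 CPM (Lmx1b) and 24.98 CPM (Pdgfra) and macrophages 19.9 CPM (Lmx1b) and 25.9 CPM (Pdgfra). Cartilage, with 1.03 CPM (Lmx1b) and 3.83 CPM (Pdgfra), lay near 0.

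One group of mesenchymal cells carried much Calcrl. Nail-associated cells had 241 CPM in the Lmx1b library (209 to 277, in 27 of 41 cells) and 133 CPM in the Pdgfra library (117 to 150, in 73 of 133 cells), 30.4-fold (Lmx1b) and 20.3-fold (Pdgfra) the other mesenchymal cells. After thinning 48.7% (Lmx1b) and 34.0% (Pdgfra) of them had a UMI. Without the highest cell the levels were 201 CPM (Lmx1b) and 123 CPM (Pdgfra). The endothelial marker list summed to 57.8 CPM (Lmx1b) and 27.1 CPM (Pdgfra) in these cells, with Pecam1 at 25.3 CPM (Lmx1b) and 8.03 CPM (Pdgfra), against 4746 CPM (Lmx1b) and 4166 CPM (Pdgfra) in endothelium, and its part in the Calcrl value was not tested. The Angpt2 group had 48.5 CPM (Lmx1b) and 28.0 CPM (Pdgfra) of Calcrl. In mature osteoblasts, where Ramp1 was highest, Calcrl was at 0.658 CPM (Lmx1b) and 1.495 CPM (Pdgfra), in 1.78% (Lmx1b) and 4.55% (Pdgfra) of cells.

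In endothelium Ramp2 stood at 950 CPM (Lmx1b) and 855 CPM (Pdgfra) and Ramp3 at 127 CPM (Lmx1b) and 73.6 CPM (Pdgfra) beside the low Ramp1. In nail-associated cells Ramp2 stood at 352 CPM (Lmx1b) and 392.4 CPM (Pdgfra), against 4.82 CPM (Lmx1b) and 11.5 CPM (Pdgfra) of Ramp1. In pericytes and smooth muscle the order was the other way, with 11.4 CPM (Lmx1b) and 16.7 CPM (Pdgfra) of Ramp2 beside 325 CPM (Lmx1b) and 344 CPM (Pdgfra) of Ramp1. In mature osteoblasts Ramp2 was at 6.58 CPM (Lmx1b) and 17.2 CPM (Pdgfra). Of the ligands, Adm, which encodes adrenomedullin, was highest in the Angpt2 group at 61.3 CPM (Lmx1b) and 39.2 CPM (Pdgfra). Calca, which encodes CGRP, was at most 1.56 CPM in a Lmx1b group and was highest in T and NK cells of the Pdgfra library at 17.3 CPM, from 3 UMIs in 3 of 31 cells. Ackr3, a scavenging receptor for adrenomedullin and chemokines, had 83.4 CPM (Lmx1b) and 39.4 CPM (Pdgfra) in endothelium and 79.6 CPM (Lmx1b) and 33.6 CPM (Pdgfra) in mature osteoblasts.

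**Figure D3:**
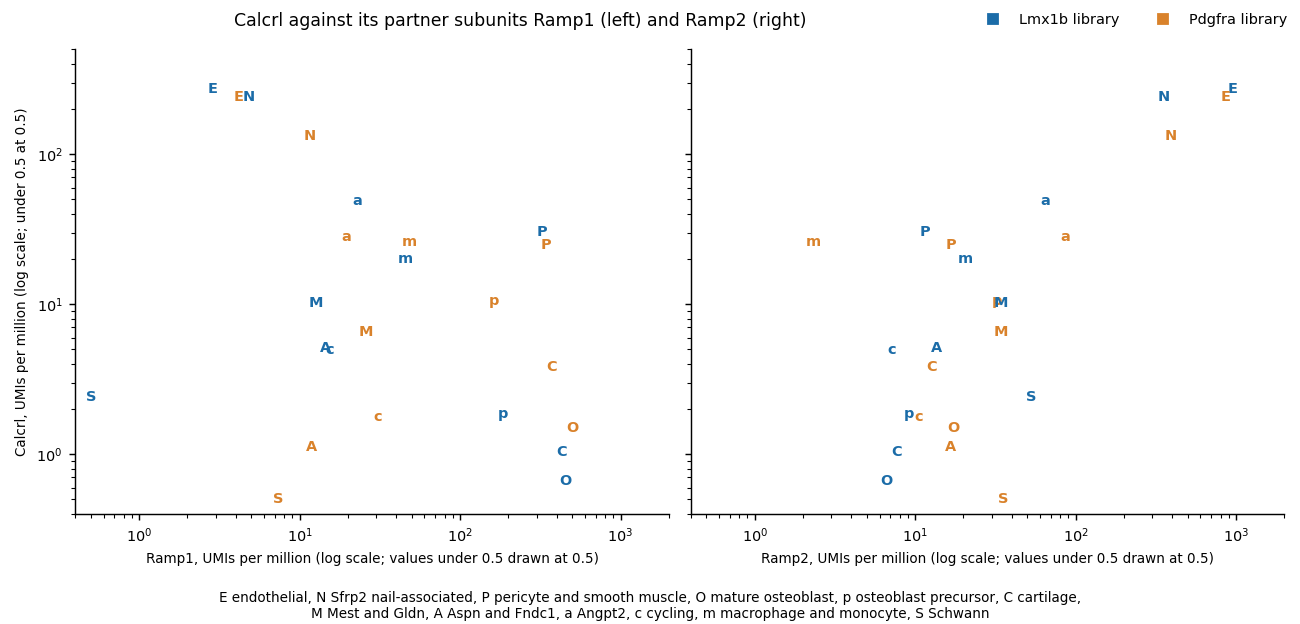
Calcrl level against Ramp1 level (left) and Ramp2 level (right), all in CPM on log axes, for the groups named by the letters E (endothelial), N (nail-associated), P (pericyte and smooth muscle), O (mature osteoblast), p (osteoblast precursor), C (cartilage), M (Mest and Gldn), A (Aspn and Fndc1), a (Angpt2), c (cycling), m (macrophage and monocyte) and S (Schwann), in the Lmx1b library (blue) and the Pdgfra library (orange). Values below the axis range are drawn at its edge. Endothelial and nail-associated cells lie at high Calcrl with high Ramp2 and low Ramp1, and mature osteoblasts and cartilage at high Ramp1 with little Calcrl.

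Cells with both partners were counted after thinning, against the number that the 2 shares would give if they were unrelated. In pericytes and smooth muscle 25 of 300 Lmx1b cells and 19 of 209 Pdgfra cells had both Ramp1 and Calcrl, against 23.9 (Lmx1b) and 16.7 (Pdgfra) from the shares. In the mesenchyme 4 of 918 Lmx1b cells and 7 of 515 Pdgfra cells had both, below the 15.5 (Lmx1b) and 10.5 (Pdgfra) from the shares. Cartilage had no such cell among 108 Lmx1b and 58 Pdgfra cells. Ramp2 with Calcrl went the other way, with 23 Lmx1b and 34 Pdgfra mesenchymal cells carrying both, where the shares gave 7.75 (Lmx1b) and 12.2 (Pdgfra). Within nail-associated cells the pair was close to its shares, at 15 cells against 13.6 in the Lmx1b library and 31 against 27.2 in the Pdgfra library, as it was within endothelium at 372 against 371 (Lmx1b) and 154 against 155 (Pdgfra). The surplus over the whole mesenchyme was not matched inside the subtype that held most of both genes.

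Bdnf was a low-level gene of the fibroblast-like groups. In Mest and Gldn cells it stood at 38.4 CPM in the Lmx1b library (32.2 to 45.4, 136 UMIs in 42 of 124 cells) and 56.5 CPM in the Pdgfra library (50.4 to 63.2, 311 UMIs in 89 of 159 cells). The highest cell had 13 (Lmx1b) and 21 (Pdgfra) of these UMIs, so no single cell carried the value. The Aspn and Fndc1 group followed at 18.4 CPM in Lmx1b cells (15.01 to 22.39) and 28.5 CPM in Pdgfra cells (22.5 to 35.6). Cycling mesenchymal cells had 13.7 CPM (Lmx1b) and 16.8 CPM (Pdgfra), with 10 of the 19 Pdgfra UMIs in 1 cell. Osteoblast precursors had 5.83 CPM (Lmx1b) and 9.05 CPM (Pdgfra), nail-associated cells 1.21 CPM (Lmx1b) and 5.02 CPM (Pdgfra) and mature osteoblasts 0.439 CPM (Lmx1b) and 0.748 CPM (Pdgfra). The order of the leading groups was thus the same in both libraries. Mest and Gldn cells exceeded the other mesenchymal cells 4.70-fold in the Lmx1b library (3.75 to 5.87) and 4.64-fold in the Pdgfra library (3.82 to 5.65). The cluster had the mast cell genes Mcpt4 and Cma1 among its leading genes, with a mast list of 1.69 CPM in the Lmx1b and 173 CPM in the Pdgfra library. Their part in the Bdnf level was not tested.

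After thinning 14.0% of the Lmx1b and 19.4% of the Pdgfra Mest and Gldn cells had a Bdnf UMI, against 33.9% (Lmx1b) and 56.0% (Pdgfra) at their own depth of 27381.5 (Lmx1b) and 29419 (Pdgfra) UMIs. Endothelium, as a class that should lack it, had 1 Bdnf UMI-bearing cell in each library, 0.165% (Lmx1b) and 0.308% (Pdgfra) of cells at a median of 12554 (Lmx1b) and 10403 (Pdgfra) UMIs. Pericytes and smooth muscle had 6.59 CPM (Lmx1b) and 17.5 CPM (Pdgfra), and of the 63 Pdgfra UMIs 49 came from the Il6 and Cxcl1 cluster at 47.0 CPM. In the Lmx1b library the Mstn cluster of that class was highest at 21.1 CPM. Schwann cells had 2.41 CPM in the Lmx1b and 19.9 CPM in the Pdgfra library, where 15 of the 19 UMIs lay in 1 cell.

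Ntrk2, the receptor of BDNF, peaked in nail-associated cells and not in those with most Bdnf. It stood at 545 CPM in the Lmx1b library (496 to 597, in 37 of 41 cells) and 298 CPM in the Pdgfra library (274 to 323, in 104 of 133 cells), 20.7-fold (Lmx1b) and 10.1-fold (Pdgfra) the other mesenchymal cells. It was one of the most evenly spread members: 87.2% (Lmx1b) and 58.0% (Pdgfra) of nail-associated cells kept a UMI after thinning, and the level was 510 CPM (Lmx1b) and 288 CPM (Pdgfra) without the highest cell. The fibroblast-like groups had a lower plateau, at 48.5 CPM (Lmx1b) and 38.2 CPM (Pdgfra) in Mest and Gldn cells, 42.5 CPM (Lmx1b) and 35.9 CPM (Pdgfra) in Aspn and Fndc1 cells and 41.0 CPM (Lmx1b) and 30.8 CPM (Pdgfra) in the Angpt2 group. The Pdgfra value of the Angpt2 group rested on 11 UMIs in 2 cells, of which 10 were in 1, and was 3.05 CPM without it. Osteoblast precursors had 14.5 CPM (Lmx1b) and 25.4 CPM (Pdgfra) and mature osteoblasts 3.73 CPM (Lmx1b) and 2.99 CPM (Pdgfra). In pericytes and smooth muscle Ntrk2 stood at 24.8 CPM (Lmx1b) and 21.1 CPM (Pdgfra), in cartilage at 9.05 CPM (Lmx1b) and 8.84 CPM (Pdgfra) and in macrophages at 0.688 CPM (Lmx1b) and 0.463 CPM (Pdgfra). Macrophages had an Ntrk2 UMI in 1.82% (Lmx1b) and 0.862% (Pdgfra) of cells, at a median of 26876.5 (Lmx1b) and 19902.5 (Pdgfra) UMIs against 21225 (Lmx1b) and 15446 (Pdgfra) in nail-associated cells. In the thinned mesenchyme 6 cells of each library had both Ntrk2 and Bdnf, where the shares gave 6.30 for the Lmx1b and 9.61 for the Pdgfra cells.

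Ntrk3 was rarer and had the same highest subtype. Nail-associated cells had 38.6 CPM in the Lmx1b library (26.4 to 54.4, in 11 of 41 cells) and 41.7 CPM in the Pdgfra library (33.2 to 51.6, in 36 of 133 cells). The Mest and Gldn group was far below at 2.82 CPM (Lmx1b) and 2.00 CPM (Pdgfra). In pericytes and smooth muscle Ntrk3 stood at 13.2 CPM (Lmx1b) and 9.16 CPM (Pdgfra), and 42 of the 76 Lmx1b UMIs came from the Mstn cluster at 46.7 CPM. Cells with Ntrk2 and Ntrk3 together numbered 6 in each library among thinned nail-associated cells, where the shares gave 6.10 (Lmx1b) and 7.54 (Pdgfra).

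Ngfr was the member most tied to one class. Schwann cells, the glia of peripheral nerve, had 322 CPM in the Lmx1b library (270 to 382, in 29 of 35 cells) and 303 CPM in the Pdgfra library (269 to 340, in 62 of 88 cells), 195-fold (Lmx1b) and 206-fold (Pdgfra) the level of all other cells. The libraries gave the same level within counting error, 1.06 for Lmx1b over Pdgfra (0.86 to 1.31). After thinning 58.1% (Lmx1b) and 66.7% (Pdgfra) of Schwann cells had a UMI. Endothelium had 1 cell with an Ngfr UMI in the Lmx1b library (0.165%) and none in the Pdgfra library, which allows up to 0.654 CPM. Dendritic cells had 5.18 CPM (Lmx1b) and 18.8 CPM (Pdgfra), with 4 of the 5 Pdgfra UMIs in 1 cell, and pericytes and smooth muscle 2.95 CPM (Lmx1b) and 3.05 CPM (Pdgfra). In nail-associated cells it stood at 43.4 CPM in the Lmx1b library, from 36 UMIs of which 22 were in 1 cell, and at 10.0 CPM in the Pdgfra library, from 20 UMIs in 8 cells. Without the highest cell 17.5 CPM (Lmx1b) and 6.70 CPM (Pdgfra) were left. The Schwann list summed to 9.64 CPM (Lmx1b) and 109 CPM (Pdgfra) in these nail-associated cells, with Sox10 and Foxd3 among those at 0 in the Lmx1b library, and its part in the Ngfr value was not tested.

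Gdnf was low in every named group. Schwann cells had 14.4 CPM in the Lmx1b library (6 UMIs in 6 cells) and 8.37 CPM in the Pdgfra library (8 UMIs in 8 cells). Mest and Gldn cells were the highest mesenchymal subtype in both libraries, with 5.36 CPM in Lmx1b cells (19 UMIs in 15 cells) and 6.73 CPM in Pdgfra cells (37 UMIs in 28 cells), the same subtype in which Bdnf was highest. Nail-associated cells had 4.82 CPM (Lmx1b) and 3.01 CPM (Pdgfra) and pericytes and smooth muscle 2.25 CPM (Lmx1b) and 1.39 CPM (Pdgfra).

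**Figure D4:**
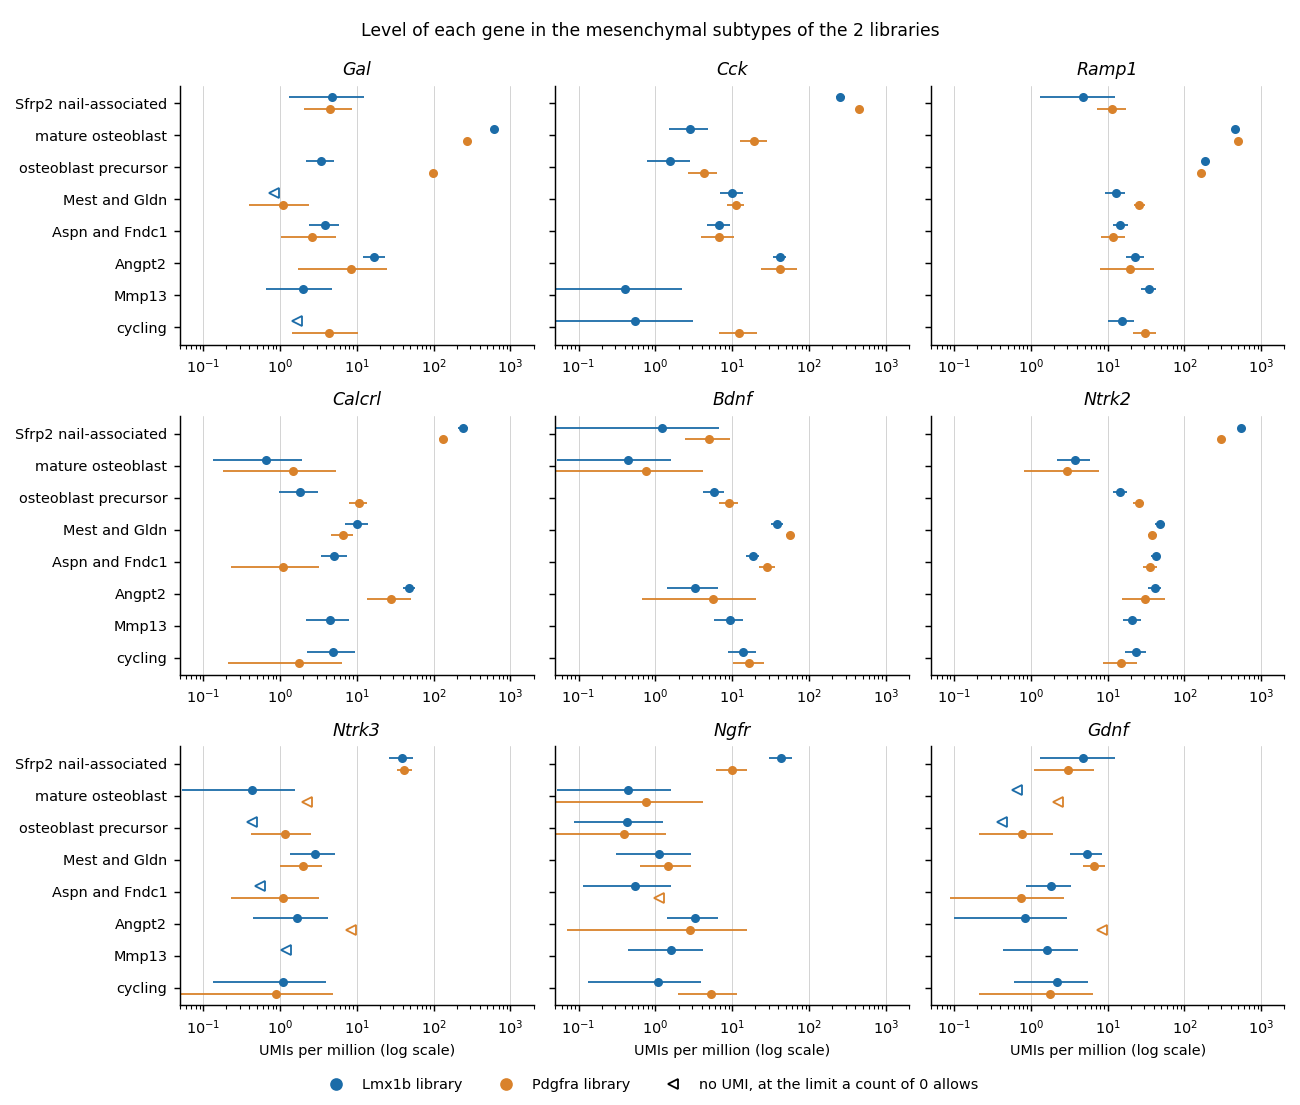
Level of the 9 genes, in CPM on a log axis, in 8 mesenchymal subtypes of the Lmx1b library (blue, upper point of a pair) and the Pdgfra library (orange, lower point). Bars are exact 95% Poisson intervals, open triangles are groups with no UMI at the limit that a count of 0 allows, and the Mmp13 group is drawn for the Lmx1b library only. Gal and Ramp1 lie highest in mature osteoblasts, Cck, Calcrl, Ntrk2 and Ntrk3 in nail-associated cells, and Bdnf and Gdnf in Mest and Gldn cells.

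Counted over members, nail-associated cells and mature osteoblasts differed from other mesenchyme in all that were measured, which is how the set was picked. In nail-associated cells 3 of 6 measured members were higher and 3 lower in the Lmx1b library, where 10.5% of all genes were higher and 9.56% lower. In the Pdgfra library 4 of 7 were higher and 3 lower, against 8.82% higher and 7.98% lower. Mature osteoblasts had 2 of 6 higher and 4 lower in the Lmx1b library, against 2.52% higher and 23.1% lower of all genes, and 2 of 7 higher and 5 lower in the Pdgfra library, against 3% higher and 27.2% lower. Mest and Gldn cells had 1 of 6 higher and 2 lower in the Lmx1b library, against 2.46% higher and 4.34% lower, and 1 of 7 higher and 5 lower in the Pdgfra library, against 1.45% higher and 3.48% lower. Nothing is read from these counts, because the members were chosen on this contrast.

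The wider families were followed in 7 lists of 91 genes, of which 90 were in the files. Genes with at least 20 CPM in the same group of both libraries numbered 5 of 9 for CGRP and adrenomedullin, 6 of 9 for neurotrophins, 5 of 9 for the GDNF family, 13 of 34 for other neuropeptides, 9 of 13 for neuropoietic cytokines and 12 of 12 for axon guidance. Galr1, Galr2, Cckar, Cckbr, Calca, Ntf3, Artn and Ret are under that level, and their values were picked after being seen, as ligands and receptors next to the members or as genes of a short count. No share over all genes stands beside the counts of list genes at 20 CPM, so nothing is read from them. In nail-associated cells 10 of 37 measured list genes were higher and 9 lower in the Lmx1b library, against 10.5% higher and 9.56% lower of all genes. In the Pdgfra library 11 of 39 were higher and 9 lower, against 8.82% higher and 7.98% lower. The 8 that were higher in both were Ramp2, Gfra1, Sst, Penk, Ednra, Mdk, Ntn1 and Robo2, of which Sst rested almost wholly on a single cell of each library. The median log2 difference of the list genes was 0.37 (Lmx1b) and 0.35 (Pdgfra), against 0.18 (Lmx1b) and 0.13 (Pdgfra) over all genes. In mature osteoblasts 3 of 37 list genes were higher and 20 lower in the Lmx1b library, against 2.52% higher and 23.1% lower of all genes. In the Pdgfra library 2 of 39 were higher and 25 lower, against 3% higher and 27.2% lower. The medians there were −1.29 (Lmx1b) and −1.85 (Pdgfra) against −0.55 over all genes in both. Nrtn was the list gene higher there in both libraries.

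Among the partners of the neurotrophin members, Ntf3, the ligand of TrkC, was highest in pericytes and smooth muscle at 69.7 CPM in the Lmx1b library, against 4.16 CPM in the Pdgfra library. Sort1, a sorting receptor that binds pro-neurotrophins, had 69.7 CPM (Lmx1b) and 83.5 CPM (Pdgfra) in pericytes and smooth muscle. Bex3, which encodes a p75-binding protein, had 118 CPM (Lmx1b) and 108 CPM (Pdgfra) in nail-associated cells, and Maged1, another p75 partner, 313 CPM (Lmx1b) and 283 CPM (Pdgfra) in the Aspn and Fndc1 group. Ntf3 thus peaked around vessels, in a class that as a whole had less Ntrk3 than the nail-associated cells. The Mstn cluster of that class had more Ntrk3 than they had in the Lmx1b library.

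Of the GDNF family, the receptors Gfra1, Gfra2 and Gfra3 were highest in Schwann cells, at 93.8 CPM (Lmx1b) and 143 CPM (Pdgfra), 205 CPM (Lmx1b) and 174 CPM (Pdgfra), and 941 CPM (Lmx1b) and 511 CPM (Pdgfra). Nail-associated cells came next for Gfra1, with 85.6 CPM (Lmx1b) and 59.2 CPM (Pdgfra), and carried Gfra2 at 30.1 CPM (Lmx1b) and 39.1 CPM (Pdgfra). The shared signalling receptor Ret was scarce, with its highest level in endothelium at 12.7 CPM (Lmx1b) and 10.5 CPM (Pdgfra). Neurturin (Nrtn) had 29.2 CPM (Lmx1b) and 128 CPM (Pdgfra) in mature osteoblasts and 31.7 CPM (Lmx1b) and 53.0 CPM (Pdgfra) in cartilage, the cells with most Gal. Artemin (Artn) had 26.5 CPM (Lmx1b) and 13.6 CPM (Pdgfra) in Schwann cells.

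Other neuropeptide genes added to this picture in the nail-associated cells. The opioid precursor Penk had 24.1 CPM (Lmx1b) and 60.7 CPM (Pdgfra) there. Somatostatin (Sst) reached 192 CPM (Lmx1b) and 162 CPM (Pdgfra), but 1 cell held 159 of 159 UMIs in the Lmx1b and 320 of 322 in the Pdgfra library. The endothelin receptor Ednra had 422 CPM (Lmx1b) and 288 CPM (Pdgfra) in nail-associated cells and 315 CPM (Lmx1b) and 279 CPM (Pdgfra) in pericytes and smooth muscle. Robo2, a Slit receptor, had 121 CPM (Lmx1b) and 134 CPM (Pdgfra), and netrin 1 (Ntn1) 118 CPM (Lmx1b) and 58.2 CPM (Pdgfra). In the vessel wall the receptors Npy1r and Sstr2 stood at 63.3 CPM (Lmx1b) and 43.6 CPM (Pdgfra) and at 54.6 CPM (Lmx1b) and 71.6 CPM (Pdgfra). In endothelium the substance P receptor Tacr1 had 68.8 CPM (Lmx1b) and 55.1 CPM (Pdgfra) and neurotensin (Nts) 56.9 CPM (Lmx1b) and 68.0 CPM (Pdgfra). Npy was highest in the Angpt2 group of the Lmx1b library at 89.9 CPM, against 5.60 CPM (2 UMIs) in that group of the Pdgfra library, and had 62.6 CPM (Lmx1b) and 150 CPM (Pdgfra) in Schwann cells.

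Labelled cells, those with at least 1600 CPM of tdTomato, made up 69 of 985 cells of the Lmx1b mesenchyme and 490 of 593 of the Pdgfra mesenchyme. Other classes of the Pdgfra library passed this threshold too. They were 73.6% of the shallow erythroid class, 43.4% of pericytes and smooth muscle, 28.9% of endothelium and 12.9% of T and NK cells. In the Lmx1b library these were 8.0%, 0.267%, 0% and 0% in the same order. How far the label marks recombined cells was not tested. In labelled mesenchyme 3 of 6 measured members were higher and 2 lower in the Lmx1b library, where 3.76% of all genes were higher and 3.91% lower. In the Pdgfra library 4 of 7 were higher and 2 lower, against 7.73% higher and 2.32% lower. Cck was 108 CPM in labelled Lmx1b cells, against 8.79 CPM in their unlabelled neighbours (12.3-fold; 10.1 to 15.1), and 64.1 against 7.79 CPM in the Pdgfra library (8.22-fold; 5.3 to 13.5). Of the labelled Lmx1b Cck UMIs 117 lay in 1 cell, and the log2 difference was 2.14 without the highest cell of each side, against 3.48 with it. Ntrk2 was 255 against 28.3 CPM (8.999-fold) in the Lmx1b and 64.1 against 23.0 CPM (2.79-fold) in the Pdgfra library. Calcrl was 84.8 against 10.4 CPM (8.12-fold) in the Lmx1b and 22.2 against 7.79 CPM (2.85-fold) in the Pdgfra library. These 3 nail-associated genes were thus higher in labelled cells of both lines. Gal was 15.2 against 107 CPM (7.08-fold lower) in the Lmx1b and 26.1 against 194 CPM (7.42-fold lower) in the Pdgfra library. Ramp1 was 53.3 against 135 CPM (2.53-fold lower) in the Lmx1b and 67.0 against 277 CPM (4.13-fold lower) in the Pdgfra library. Both osteoblast genes were thus lower in labelled cells of both lines, but the Ramp1 log2 difference of the Lmx1b library was within 2-fold at a label threshold of 800 CPM (−0.84) and as a mean of each cell's CPM (−0.35).

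The subtypes were labelled to different degrees, and the part of this in the folds was not tested. In the Lmx1b library 68.3% of nail-associated cells were labelled, against 11.3% of Mest and Gldn cells, 3.55% of mature osteoblasts and 1.06% of precursors. In the Pdgfra library the percentages were 88.0, 96.2, 27.3 and 75.5. Within nail-associated cells Ntrk2 and Calcrl differed less. Ntrk2 was 625 CPM in 28 labelled and 403 CPM in 13 unlabelled Lmx1b cells (1.55-fold; 1.26 to 1.93), and 299 against 258 CPM in the Pdgfra cells (1.16-fold; 0.736 to 1.94). Calcrl was 251 against 223 CPM (1.13-fold; 0.833 to 1.53) in the Lmx1b and 135 against 81.4 CPM (1.66-fold; 0.752 to 4.56) in the Pdgfra library. Counting error alone thus covered a ratio of 1 for Calcrl in both. Cck was 334 against 120 CPM (2.79-fold; 1.94 to 4.11) in the Lmx1b library, where 117 of the 177 labelled UMIs lay in 1 cell. In the Pdgfra library Cck was 458 against 27.1 CPM, the unlabelled value from 2 UMIs in 16 shallow cells with a median of 1247 UMIs, against 16282 in the 117 labelled cells. Among nail-associated cells 2 of 5 members were higher and none lower in the Lmx1b library, against 9.45% higher and 7.48% lower of all genes, and 1 of 7 higher and 3 lower in the Pdgfra library, against 26.8% higher and 18.5% lower.

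Bdnf was the member on which the labels of the lines parted. It was 9.09 CPM in labelled and 12.1 CPM in unlabelled mesenchyme of the Lmx1b library, a ratio of 0.749 (0.414 to 1.25), and 28.7 against 4.68 CPM in the Pdgfra library, a ratio of 6.15 (3.48 to 12.0). The Lmx1b interval takes in 1. The Pdgfra log2 difference of 2.39 fell short of 2-fold at a label threshold of 3200 CPM, where it was 0.70, and as a mean of each cell's CPM, where it was 0.74. Within the Lmx1b Mest and Gldn cells it was 29.1 CPM in 14 labelled cells, against 39.6 CPM in the 110 unlabelled ones. Ntrk2 behaved differently in the same cells, at 97.0 against 42.1 CPM (2.30-fold; 1.58 to 3.30), and in Aspn and Fndc1 cells it was 114 CPM in 15 labelled cells, against 36.7 CPM in the 170 unlabelled ones (3.11-fold; 2.21 to 4.30). In mature osteoblasts of the Pdgfra library Gal was 81.1 CPM in 12 labelled cells, against 368 CPM in the 32 unlabelled ones, while Ramp1 was 468 against 520 CPM.

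**Figure D5:**
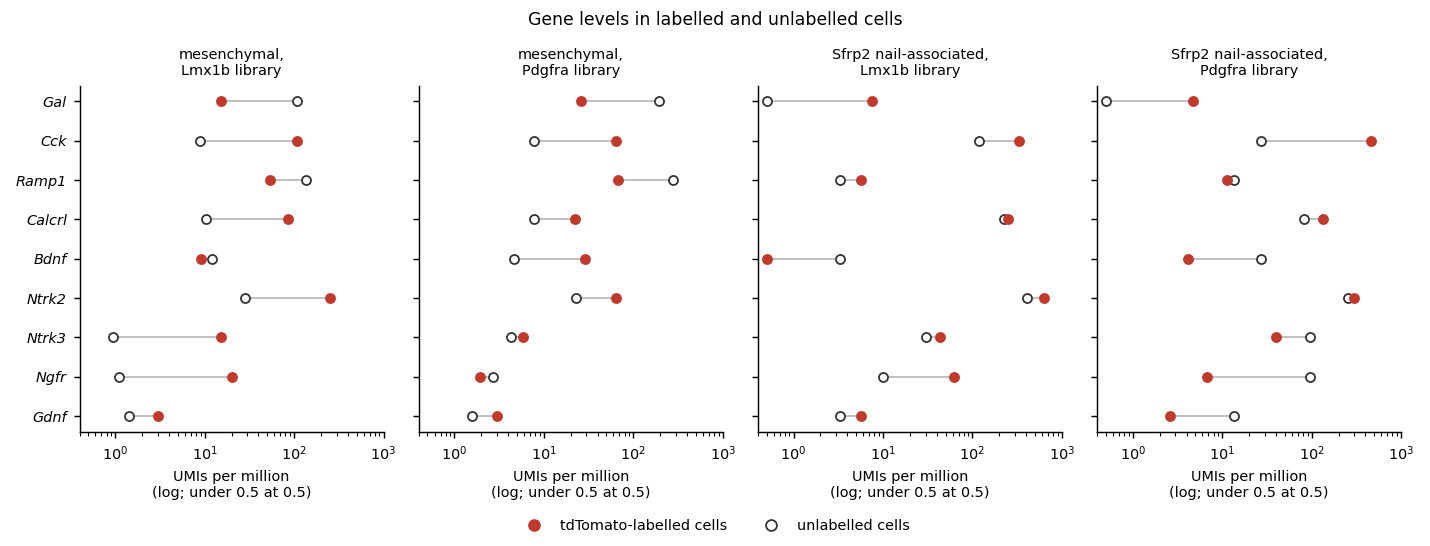
Level of the 9 genes, in CPM on a log axis, in labelled cells (filled red) and unlabelled cells (open) of the mesenchyme and of the nail-associated subtype, in the Lmx1b and the Pdgfra library. Values below the axis range are drawn at its edge. Cck, Calcrl and Ntrk2 lie to the right in labelled mesenchyme of both libraries, and Gal and Ramp1 to the left.

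The libraries differ in line, animals and depth, which cannot be told apart. In the mesenchyme 1 of 6 measured members was past 2-fold higher and 2 lower in the Lmx1b library, where 0.753% of all genes were higher and 0.924% lower. Gal was higher at 102 CPM in the Lmx1b library against 49.4 CPM in the Pdgfra library (2.06-fold; 1.92 to 2.23). Cck was lower at 14.6 against 56.3 CPM (3.85-fold lower; 3.43 to 4.32) and Bdnf at 12.0 against 25.4 CPM (2.12-fold lower; 1.84 to 2.45). Gal was within 2-fold under both other cell filters, with member and list genes left out of the clustering, with a pseudocount of 5 CPM and without the highest cells. Bdnf was within it under both filters, under TMM scaling and with that pseudocount, and Cck stayed past it. The make-up of the mesenchyme differed too, with 41 of 985 against 133 of 593 nail-associated cells and 169 against 44 mature osteoblasts. Within the subtypes Cck was 0.581 of the Pdgfra level in nail-associated cells (0.498 to 0.675). It was past 2-fold lower without the highest cell of each library (119 against 393 CPM, log2 −1.71). Bdnf was 0.678 of the Pdgfra level in Mest and Gldn cells (0.551 to 0.833). Gal was 2.21-fold higher in mature osteoblasts (1.98 to 2.47) and 28.9-fold lower in precursors (19.2 to 45.5). The precursor interval leaves out the uneven spread over cells, as the top 10% of Pdgfra precursors held 94.7% of their Gal UMIs. In nail-associated cells Ntrk2 was 1.83-fold (1.62 to 2.07) and Calcrl 1.81-fold (1.501 to 2.186) the Pdgfra level, and 1 of 6 members was past 2-fold higher and 1 lower, against 2.63% higher and 4.01% lower of all genes. Ngfr was the higher one and Ramp1, from 4 against 23 UMIs, the lower one. In pericytes and smooth muscle Cck was 2.23-fold higher (1.80 to 2.76) and Bdnf 2.65-fold lower, so that 1 of 6 members was higher and 1 lower, against 2.53% higher and 1.15% lower of all genes. Of the family lists there, 7 of 32 genes were higher in the Lmx1b library and none lower, among them Ackr3, Ntf3, Nts, Ednrb, Clcf1 and Slit3. Ackr3 was past 2-fold higher in the Lmx1b library in mesenchyme and endothelium as well. The make-up of the vessel wall class differed too. Its Mstn cluster had 59 Lmx1b against 2 Pdgfra cells, and its Il6 and Cxcl1 cluster 40 against 77. The part of this make-up in the differences was not tested.

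Likeness to other genes was measured as Pearson's r of log2(CPM + 1) over 15 points, the 8 subtypes of the Lmx1b and 7 of the Pdgfra library, among 8468 genes. The points share libraries and depths, so r is a description. Nearest to Gal were Sost (r 0.886), Dkk1 (0.884) and Chad (0.876), of which Sost encodes the Wnt inhibitor sclerostin of osteocytes. Nearest to Ramp1 were Ifitm5 (0.970), a gene of mineralising osteoblasts, D7Ertd443e (0.964) and Slc8a3 (0.963). Nearest to Cck were Ifitm1 (0.914), Dach1 (0.908) and Apod (0.897). Ntrk2 came closest to Ifi27 (0.969), Adh7 (0.963) and Layn (0.959), and Bdnf to Arxes2 (0.969), Nell2 (0.925) and Fndc1 (0.911). No gene was shared between these 5 short lists, but each holds only 3 of 8468 genes, so nothing is read from that.

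Cells with Gal and Ramp1 together were in surplus over the whole mesenchyme, with 55 Lmx1b and 18 Pdgfra cells after thinning, where the shares gave 16.5 (Lmx1b) and 6.58 (Pdgfra). Inside mature osteoblasts the pair was near its shares, at 52 against 47.2 in the Lmx1b and 12 against 11.3 in the Pdgfra library. Gal with Galr2 was found in 4 Lmx1b and 2 Pdgfra mesenchymal cells, where the shares gave 4.82 (Lmx1b) and 2.39 (Pdgfra). In nail-associated cells Cck and Ntrk2 were together in 9 Lmx1b cells against 7.85 and in 20 Pdgfra cells against 21.5, and Cck and Calcrl in 4 Lmx1b cells against 4.38 and in 18 Pdgfra cells against 12.6. Gal and Cck, the peptides of the 2 states, were together in 1 Lmx1b and 2 Pdgfra mesenchymal cells.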

How the data were processed

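Droplet 3′ RNA sequencing of regenerating mouse digit tips gave 2 libraries, 1 per mouse line. What the authors deposited are whole, unnormalised UMI counts for each gene in each barcode; Cell Ranger 4.0.0 wrote them, per the file headers, from reads aligned to an mm10 genome that includes tdTomato, per the labels' protocols. There were 66867027 UMIs over 5991 barcodes in the Lmx1b library, against 49084751 over 5032 in the Pdgfra library. They shared 10 barcodes, of which 1 was among the cells kept.

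Barcodes under 500 genes or above 10% mitochondrial UMIs were dropped, and 49 and 65 of the rest were removed as doublets scored with Scrublet, at an assumed rate of 0.8% per 1000 barcodes. Cells were clustered in scanpy 1.11.5 (2000 variable genes, 30 principal components, 15 neighbours, Leiden resolution 1.0; subtypes with 20 components at 0.6) under Python 3.11.15, and named from marker lists where at least 3 markers were found. Clusters below 0.333 of the library's median depth without a marker of their own stayed unnamed (256 and 496 cells), and groups under 20 cells gave no value. Classes were rebuilt here, so their limits may differ from the study's own.

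UMIs were summed per group and library. Levels carry exact Poisson intervals, folds exact intervals of a ratio of counts, and a count of 0 a limit of 3 counts. Cells are not replicates, so with 1 library per line no test across samples was possible. Folds counted as past 2-fold used a pseudocount of 1 CPM and needed 5 CPM over both sides. TMM factors came from edgeR 4.0.16 under R 4.3.3 as an alternative. The fold and call steps were tested on simulated data. Named genes were all members, list genes with at least 20 CPM in the same group of both libraries, and the 3 genes most alike in profile to Gal, Cck, Ramp1, Bdnf and Ntrk2. The members, lists and subtype names were chosen with earlier results of these data known. Alternatives covered the cell filters, doublets, subtype resolution, clustering without these genes, scaling, pseudocount, thinning, a per-cell marker gate and the label threshold.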

Additional observations from a re-analysis of the deposited data

Results flagged for a closer look

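The value of Bdnf differed in sign between the labels of the lines. Its log2 difference of labelled over unlabelled mesenchymal cells was −0.38 for the Lmx1b library and 2.39 for the Pdgfra library, and with 1 library per line the difference between them was not tested. The Lmx1b ratio of 0.749 has a counting interval of 0.414 to 1.25, and the Pdgfra value was within 2-fold, at 0.70 and 0.74, with a label threshold of 3200 CPM and as a mean of each cell's CPM. Labelled cells made up 11.3% of Mest and Gldn cells and 3.55% of mature osteoblasts of the Lmx1b library, against 96.2% and 27.3% of those of the Pdgfra library.

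Ntrk2 reached 1981 CPM in 63 Lmx1b barcodes of an unnamed cluster led by Mt3, Lcn2, Aldoc, Gfap, Slc1a2 and Hrsp12, a signal outside the named classes. It came from 126 UMIs in 51 barcodes with a median of 933 UMIs, all 5 Schwann markers were at 0 there, and no Pdgfra barcode fell in the cluster. What these barcodes are was not tested, and they stand among the other cells in the Ntrk2 fold of the Lmx1b mesenchyme. Without this cluster the same 3 members were past 2-fold in that contrast.

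Bdnf reached 59.26 CPM in 84 Pdgfra barcodes of an unnamed cluster led by H19, Gm10260, Ptn, Socs3, Gm10709 and Mest. It came from 35 UMIs in 15 barcodes with a median of 2184.5 UMIs, and the mesenchymal list summed to 78480 CPM there.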

How the results depend on the processing

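Of 564 alternative values of single members that were past 2-fold as reported, 561 kept their direction and 530 stayed past 2-fold. The 17 settings include the cells with both partners at their own depth, which adds none of these values. Covered were the mesenchyme, nail-associated cells, mature osteoblasts, the Mest and Gldn and the Aspn and Fndc1 groups joined, and labelled mesenchyme. So were the libraries within mesenchyme, vessel wall, nail-associated cells and mature osteoblasts. Folds of other classes and subtypes, precursors among them, were put to no alternative. Over the alternatives Gal in mature osteoblasts ranged from 5.87 to 7.23 (log2) in the Lmx1b and 3.06 to 4.49 in the Pdgfra library, Cck in nail-associated cells from 4.02 to 6.25 (Lmx1b) and 4.96 to 5.43 (Pdgfra), Calcrl there from 4.07 to 5.08 (Lmx1b) and 3.99 to 4.60 (Pdgfra), and Ntrk2 there from 3.92 to 4.32 (Lmx1b) and 3.07 to 3.56 (Pdgfra). The values that reversed were Cck between libraries in mature osteoblasts, 0.70 with member and list genes left out of the clustering and 0.43 without each member's highest cell, where 24 of 26 Pdgfra UMIs came from 1 cell, and Ntrk2 in the Lmx1b mesenchyme over all other cells, −0.62 as a mean of each cell's CPM. Between libraries, the members past 2-fold in the mesenchyme fell to 1, against 3, under the filters of 200 genes with 25% mitochondrial UMIs and of 1000 genes with 5%, and with a pseudocount of 5 CPM (Gal and Bdnf lost). Gal alone was lost without these genes in the clustering (0.72) and without the highest cells (0.97), and Bdnf alone under TMM (−0.99). In mature osteoblasts they were 1, against 2, under the looser filter, as a mean of cells and without the highest cell, and 0 without these genes in the clustering. They were 1, against 2, in pericytes and smooth muscle without doublet removal (Cck lost) or at 5 CPM (Bdnf lost), and in nail-associated cells at 5 CPM (Ramp1 lost). Over all other cells the mesenchyme had 3 members past 2-fold, against 5, in the Pdgfra library under the stricter filter (Calcrl and Ngfr lost), and 5, against 3, in the Lmx1b library thinned to 5000 UMIs. Ramp2 with Calcrl in the mesenchyme was 1.71 (Lmx1b) and 1.79 (Pdgfra) times its expectation at the cells' own depth. The cause was not tested for any of these. The shift of all genes from TMM factors (log2) was 0.24 (Lmx1b) and 0.19 (Pdgfra) for the mesenchyme. It was −0.32 (Lmx1b) and −0.24 (Pdgfra) for nail-associated cells and 0.54 (Lmx1b) and 0.48 (Pdgfra) for mature osteoblasts. For labelled mesenchyme it was −0.14 (Lmx1b) and −0.17 (Pdgfra). Members were called again under TMM only for labelled mesenchyme and between libraries, where none past 2-fold changed direction. The stricter filter gave no value for nail-associated cells and mature osteoblasts of the Pdgfra library. The alternatives without the highest cell, without the Gfap and Slc1a2 cluster and with cells of at least 5000 UMIs were chosen after seeing the data. No paired analysis was possible because each line has 1 library. Ngfr outside Schwann cells, Ntrk3 outside nail-associated cells and the vessel wall, and Gdnf throughout rest on few UMIs.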

Other observations

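The barcodes left out by the filters, 3247 from the Lmx1b and 2723 from the Pdgfra library, held 94.7 CPM (Lmx1b) and 93.4 CPM (Pdgfra) of Ramp1, 85.3 CPM (Lmx1b) and 66.6 CPM (Pdgfra) of Calcrl and 61.3 CPM (Lmx1b) and 34.1 CPM (Pdgfra) of Ntrk2. Gal stood at 16.6 CPM (Lmx1b) and 29.8 CPM (Pdgfra) in them and Cck at 15.5 CPM (Lmx1b) and 11.8 CPM (Pdgfra).

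Among trophic factors that are no members, midkine (Mdk) was highest in nail-associated cells at 692 CPM (Lmx1b) and 701 CPM (Pdgfra), and its relative pleiotrophin (Ptn) in Schwann cells at 1080 CPM (Lmx1b) and 1017 CPM (Pdgfra). Sema3a, a repellent of sensory axons, was highest in nail-associated cells too, at 102 CPM (Lmx1b) and 119 CPM (Pdgfra), while Sema3c was highest in Schwann cells at 284 CPM (Lmx1b) and 312 CPM (Pdgfra). The neuromedin gene Nmb had 143 CPM (Lmx1b) and 85.0 CPM (Pdgfra) in osteoclasts.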
